A study of Mus musculus with 16 samples.

Results

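Broad H3K4me3 domains of muscle macrophages were taken as stretches of the genome where peaks of histone H3 lysine 4 trimethylation, merged over libraries, ran on for several kilobases. The peaks of the 4 H3K4me3 lists were merged wherever they overlapped by at least 1 bp, and a merged region with a peak in all 4 lists was called a shared region. Of 13298 shared regions, 959 were 6 kb wide or more, and 813 of these held no peak of the repressive mark H3K27me3 in any list. These 813 domains, chosen by their H3K4me3 width and the absence of H3K27me3 peaks, are described here, and neither property is a finding about them. They made up 6.11% of the shared regions and 13.8% of their bases, or 6.39 Mb. The 10579 shared regions under 6 kb without H3K27me3, called ordinary regions below, had a median width of 2962 bp. The 146 regions of 6 kb or more with an H3K27me3 peak were the other set used for comparison.

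H3K4me3 is laid down around the start sites of active genes by methyltransferases of the COMPASS family. At most promoters it forms a narrow peak, and in many cell types the widest domains lie at genes that define the identity of the cell. H3K27ac, an acetylation written by p300 and CBP, marks active promoters and active enhancers. H3K18la is the lactylation of lysine 18, a histone post-translational modification (hPTM) that uses lactate as its source and has been described at promoters and enhancers. H3K27me3, written by Polycomb complexes, marks repressed regions. No gene name is attached to a domain here, because the annotation at hand was of another genome build than the peak lists (GRCm39). Positions are given as the lists have them.

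All libraries came from male C57BL6J wild type mice of 8 to 12 weeks in which the femoral artery had been ligated. Macrophages positive for CD45, CD11b, F4/80 and CD64 were sorted from the calf muscle of the ischemic limb at 4 or 2 days post injury (dpi), and there was no uninjured group. CUT&Tag, in which an antibody guides a transposase to a mark so that the DNA around it is cut out and sequenced, was run on their nuclei with 4 antibodies, with 2 libraries for each mark and time, 16 in all. All buffers contained sodium butyrate, an inhibitor of histone deacetylases. The labelled cell type could not be checked against marker genes, for want of a matching annotation. The lists held 16446 to 18413 peaks for H3K4me3, 24976 to 35971 for H3K27ac and 15190 to 27578 for H3K18la. Read depth is not in the lists and is unknown. H3K27ac at 4 dpi replicate 1 stood apart, with 205.0 Mb under its peaks against 37.8 to 65.3 Mb in the other H3K27ac lists, and values that it sets are given by library or also without it. Its sample description carries a prefix of its own (S100), those of the other H3K27ac libraries carry S143, and those of all H3K18la and H3K4me3 libraries carry S035. What the prefixes stand for is not stated. Any effect of these prefixes and the difference between H3K27ac and H3K18la cannot be told apart.

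The domains had a median width of 7221 bp, with quartiles at 6479 and 8490 bp. Most lay close to the limit, and 264 were 8 kb wide or more, 96 were 10 kb or more and 8 were 15 kb or more. Just inside the limit stood chromosome 14 from 77270203 to 77276206 (6004 bp) and 2 regions of 6005 bp. Just outside stood chromosome 1 from 127130873 to 127136866 (5994 bp) and regions of 5991 and 5990 bp. The share of shared regions that were broad lay between 4.55% on chromosome 16 and 7.79% on chromosome 11, and none of the 10 shared regions on Y was broad. The median gap to the nearest other domain was 551 kb. Within 20 kb of another lay 67 domains (8.24%), and within 100 kb 176 (21.6%).

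Of the 10 widest domains, 8 stood at percentile 93.6 or higher of total H3K4me3 among shared regions in every library, with H3K27ac over 70.1% or more of the length, and the other 2 were nearly bare of both active marks. The widest lay on chromosome 12 from 104956616 to 104980699 (24.1 kb). Its H3K4me3 peaks covered 18.41 and 11.26 kb at 4 dpi, against 12.45 and 20.3 kb at 2 dpi. H3K18la covered 74.9% and 95.2% of it at 4 dpi, against 90.2% and 88.8% at 2 dpi, most of the domain in every library. Next came chromosome 15 from 76072259 to 76093963 (21.7 kb), chromosome 13 from 63386560 to 63405830 (19.3 kb), chromosome 12 from 86927990 to 86945361 (17.4 kb), chromosome 1 from 136053779 to 136071037 (17.3 kb) and chromosome 7 from 28069497 to 28086718 (17.2 kb). The domain on chromosome 13 carried H3K18la over 80.5% to 93.4% of its length in the 4 libraries. That on chromosome 12 from 86927990 carried it over 11.9% and 51.1% at 4 dpi and over 50.1% and 27.6% at 2 dpi, so that replicates of one time differed by more than the times did. The domain on chromosome 2 from 44992780 to 45008669 (15.9 kb), and that on chromosome 7 from 141934687 to 141949473 (14.8 kb), were covered by H3K18la over 57.8% or more in every library. The domains on chromosome 3 from 93111838 to 93127076 (15.2 kb), and on chromosome 4 from 146545157 to 146559596 (14.4 kb), held no H3K18la peak in any library and are taken up with the domains that lack the mark.

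The width of a domain was not the same in each library. H3K4me3 peaks covered 95.4% of the summed domain length at 4 dpi replicate 1 and 75.8% at 4 dpi replicate 2, against 75.3% and 82.3% in the 2 dpi libraries. Called length per domain had a median of 6.94 and 5.69 kb at 4 dpi, against 5.63 and 6.06 kb at 2 dpi. A single peak of 6 kb or more was found in 668 domains (82.2%) at 4 dpi replicate 1, and in 259 (31.9%) at 4 dpi replicate 2, against 243 (29.9%) and 350 (43.1%) in the 2 dpi libraries. Only 232 domains had 6 kb of called length in all 4 libraries, and 145 had a single peak of that size in all 4. In 274 domains just 1 library had 6 kb of called length, and in 68 no library did, so that only the merge reached the limit. The list of 4 dpi replicate 1 thus set the merged width of many domains. Without it, 525 regions met the rule, and 520 of the 813 domains were found again. Leaving out any other H3K4me3 list gave 751 to 793 regions.

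**Figure D1:**
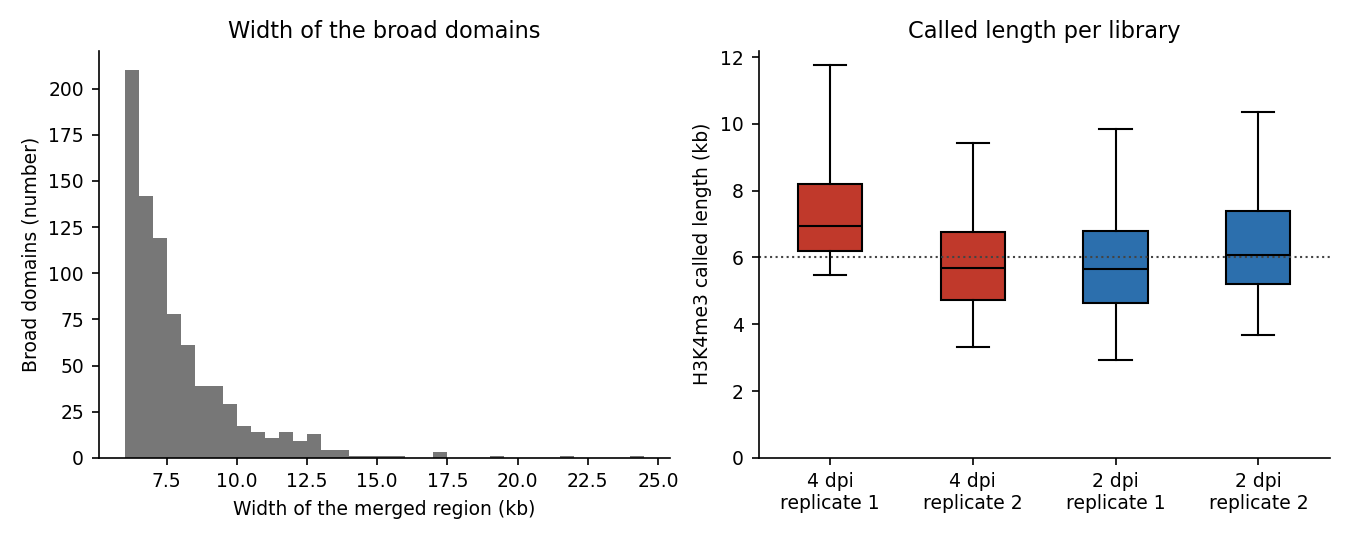
Left, the number of broad domains by the width of the merged region in kb (813 domains, bins of 0.5 kb). Right, the H3K4me3 called length per domain in kb in each library (box, quartiles and median; whiskers, 5th to 95th percentile; dotted line, 6 kb), where 4 dpi replicate 1 has a median of 6.94 kb and the other 3 libraries 5.63 to 6.06 kb.

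Width and height were different properties. The percentile of a domain among all shared regions was taken within each library, for total signal summed over its peaks and for the highest coverage reached. The median percentile of total signal was 94.1 and 93.7 in the 4 dpi libraries, against 93.2 and 93.5 in the 2 dpi libraries, which follows in part from the width that chose the domains. The median percentile of the maximum was lower, at 72.1 and 70.7 in the 4 dpi libraries, against 74.7 and 74.1 in the 2 dpi libraries, and the lowest domain stood at 0.3 to 0.5 in each. The 4 libraries placed the maximum within 500 bp of each other in 499 domains (61.4%) and in 80.7% of ordinary regions, and in 157 domains (19.3%) the 4 maxima lay over 2 kb apart. Measured from the nearer edge, the maximum stood at a median of 31.6% of the width.

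Nearly every broad domain carried H3K27ac, and most carried H3K18la, which fewer ordinary regions held. An H3K27ac peak touched 99.3% and 99.1% of the domains in the 4 dpi libraries and 98.8% and 98.9% in the 2 dpi libraries. In ordinary regions these shares were 93.1% and 93.0% at 4 dpi and 94.8% and 86.7% at 2 dpi. An H3K18la peak touched 86.0% and 88.9% of the domains at 4 dpi and 95.4% and 84.5% at 2 dpi. In ordinary regions it touched 43.9% and 47.5% at 4 dpi and 64.5% and 39.3% at 2 dpi. The mean share was thus 88.7 ± 4.85% in broad domains and 48.8 ± 11% in ordinary regions for H3K18la (SD, n = 4 libraries), and 99.0 ± 0.225% and 91.9 ± 3.57% for H3K27ac. The shares were higher in broad domains in 4 of 4 libraries for each mark, but an exact sign-flip permutation test (2-sided, pairing both values of a library) cannot go below 0.05 with 4 libraries. Over the 8 libraries of both marks the difference averaged 23.5 percentage points (exact sign-flip test, p = 0.00781, which 8 libraries cannot go below, and Benjamini-Hochberg adjusted p = 0.0254 over 13 tests). With any 1 library left out the smallest possible adjusted p is 0.0508, which this test and the other tests over 8 libraries then reached, with every library still pointing the same way. This test, like the exact permutation tests between marks below, takes libraries of different marks as independent. The study describes the marks as made from the same samples. Where that holds, 8 libraries stand for no more than 4 samples, and neither these calls nor the unadjusted p below 0.05 between marks could be reached in a test over samples.

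Both marks were found in all 4 of their libraries in 636 domains (78.2%), and in 3195 ordinary regions (30.2%). H3K27ac in all 4 libraries with no H3K18la in any was the state of 14 domains (1.72%) and of 2000 ordinary regions (18.9%). The reverse, H3K18la in all 4 libraries and H3K27ac in none, was not seen in any domain or ordinary region. The domains without either mark in any library numbered 4.

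A wider region offers more bases for a peak to touch, so the share of length under peaks was also measured. H3K27ac covered 95.2% and 76.8% of broad domain length at 4 dpi and 79.1% and 61.3% at 2 dpi. In ordinary regions it covered 88.8% and 64.8% at 4 dpi and 69.8% and 49.1% at 2 dpi. H3K18la covered 43.8% and 49.9% of broad domain length at 4 dpi and 57.5% and 41.8% at 2 dpi. In ordinary regions it covered 24.5% and 28.1% at 4 dpi and 36.5% and 21.8% at 2 dpi. Every library gave the higher value in broad domains. The mean difference was 20.5 percentage points for H3K18la and 9.97 for H3K27ac, and 15.2 over all 8 libraries (exact sign-flip permutation p = 0.00781, adjusted p = 0.0254). When only the 520 domains found again without the list of 4 dpi replicate 1 were set against ordinary regions, the differences were 25.6 points for H3K18la and 12.3 for H3K27ac.

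From 2 kb upward, coverage by the lactyl mark was higher in each wider class. H3K18la peaks covered a mean of 28.3 ± 6.77% of the length of regions 1 to 2 kb wide, and 25.3 ± 6.25% at 2 to 4 kb (SD, n = 4 libraries), 32.7 ± 6.64% at 4 to 6 kb, 46.1 ± 7.43% at 6 to 8 kb, 49.9 ± 6.71% at 8 to 10 kb and 52.9 ± 6.29% at 10 kb and over. For H3K27ac the means, from 2 to 4 kb on, were 67.4 ± 16.7%, 71.4 ± 16.4%, 76.9 ± 15.1%, 78.3 ± 13.3% and 81.4 ± 11.1% in the same order. H3K27ac at 4 dpi replicate 1 was the exception to the order among broad domains, with 96.0% at 6 to 8 kb, 94.5% at 8 to 10 kb and 93.6% at 10 kb and over.

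**Figure D2:**
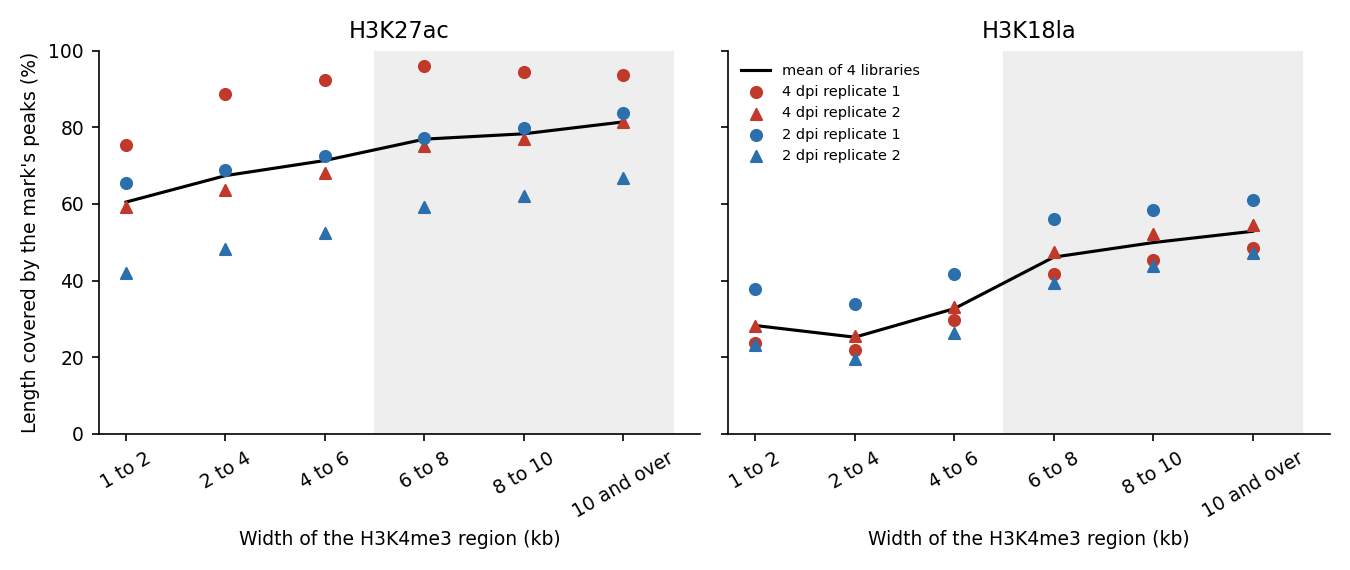
Share of the length of shared H3K4me3 regions without H3K27me3 that lay under H3K27ac peaks (left) and H3K18la peaks (right), in percent, by region width in kb (points, libraries; line, mean of 4 libraries; grey, broad domains). Mean H3K18la coverage was 25.3% at 2 to 4 kb and 52.9% at 10 kb and over.

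Within broad domains the 2 marks differed in extent. H3K27ac covered a mean of 78.1 ± 13.9% of domain length and H3K18la 48.2 ± 7.05% (SD, n = 4 libraries each), a difference of 29.9 percentage points. The lowest H3K27ac library (61.3%) lay above the highest H3K18la library (57.5%), and the exact permutation test gave p = 0.0286, the smallest that 4 against 4 allows, with an adjusted p of 0.0743 that missed the threshold of 0.05. With the lists cut to an equal number of peaks the difference was 28.1 points. At least 50% of the length was covered in all 4 libraries in 543 domains (66.8%) for H3K27ac and in 246 domains (30.3%) for H3K18la.

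Both marks covered more domains at the centre than near the edges, as did H3K4me3, whose merged peaks set the edges. Each domain was turned so that its H3K4me3 maximum was nearer to the left edge. At the centre, from 40% to 60% of the width, H3K18la covered 54.6 ± 6.63% of domains. It covered 28.9 ± 7.01% in the first 10% of the width and 26.8 ± 6.4% in the last 10%, and 6.84 ± 3.5% in the same distance outside the left edge. H3K27ac covered 82.9 ± 12% at the centre, 61.5 ± 22% and 59.5 ± 23.2% in the first and last 10%, and 32.8 ± 26.8% outside the left edge (SD, n = 4 libraries). The value outside the edge was set by 4 dpi replicate 1, with 71.9% there, 23.9% at 4 dpi replicate 2 and 24.4% and 11.1% at 2 dpi. Without that library H3K27ac covered 78.2 ± 9.04% at the centre, 51.6 ± 12.3% and 49.4 ± 13.9% in the first and last 10%, and 19.8 ± 7.58% outside the left edge (SD, n = 3 libraries). H3K4me3 itself covered 91.6 ± 4.97% of domains at the centre (SD, n = 4 libraries). In the first and last 10% it covered 61.1 ± 19% and 51 ± 23%. The part of the merged edges in the lower edge values of H3K27ac and H3K18la was not tested. No test of a difference between the marks in position was run. H3K27ac peaks ran over an edge in 95.7% and 54.7% of domains at 4 dpi and in 60.3% and 32.1% at 2 dpi. H3K18la peaks did so in 15.3% and 20.3% at 4 dpi and in 32.1% and 14.8% at 2 dpi, so the ranges of the marks meet. A single peak spanned the whole domain in 69.9% of domains in the H3K27ac library of 4 dpi replicate 1 and in 0.861% to 10.2% in the other H3K27ac libraries. For H3K18la this share was 0.123% to 1.6%.

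**Figure D3:**
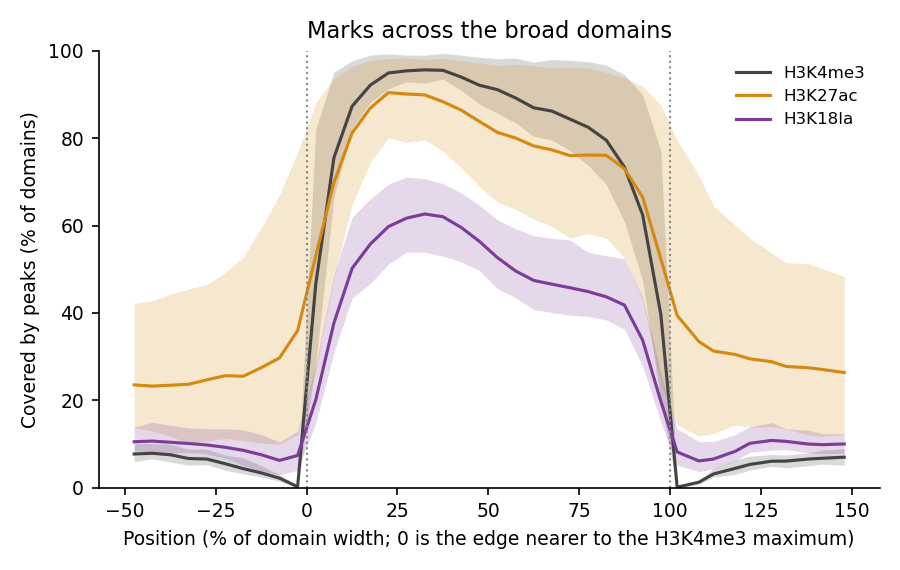
Share of the 813 broad domains covered by peaks, in percent, against position in percent of domain width, with 0 at the edge nearer to the H3K4me3 maximum and dotted lines at both edges (lines, mean of 4 libraries; bands, lowest to highest library). H3K18la covered 54.6% of domains at the centre and 28.9% in the first 10% of the width.

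The summit of the lactyl mark stood farther from the H3K4me3 summit than that of the acetyl mark, among summits inside the domain. Distances were taken only where the maximum of the mark lay inside the region. The median distance was 652 and 760 bp for H3K18la at 4 dpi and 770 and 636 bp at 2 dpi. For H3K27ac it was 372 and 369 bp at 4 dpi and 351 and 436 bp at 2 dpi. The means were 704 ± 70.3 bp for H3K18la and 382 ± 37.2 bp for H3K27ac (SD, n = 4 libraries each), without overlap. The exact permutation test gave p = 0.0286, the smallest that the design allows, for this 1 comparison, which was chosen after the data had been seen and lies outside the family of 13. In ordinary regions, which are shorter, the medians were 107 to 118 bp for H3K18la and 93 to 132 bp for H3K27ac, and these ranges overlap. A maximum of H3K18la lay over 2 kb from that of H3K4me3 in 26.6% to 30.7% of the domains kept, and one of H3K27ac in 19.9% to 22.1%. For H3K27ac, 698 of 807 and 789 of 806 domains with a peak were kept at 4 dpi, and 783 of 803 and 801 of 804 at 2 dpi. For H3K18la these were 695 of 699 and 718 of 723 at 4 dpi, and 761 of 776 and 681 of 687 at 2 dpi. The part of the domains left out in the difference between marks was not tested.

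The peaks that lay in broad domains ranked above the middle of their own lists, by a smaller margin for H3K18la than for H3K27ac. H3K18la peaks touching a domain had a median percentile of maximum signal of 60.4 and 64.6 at 4 dpi and of 67.3 and 57.1 at 2 dpi. Those at ordinary regions had 51.6 and 52.4 at 4 dpi and 58.3 and 53.5 at 2 dpi. For H3K27ac the medians in broad domains were 90.5 and 80.6 at 4 dpi and 79.6 and 70.9 at 2 dpi, and at ordinary regions 80.6 and 72.9 at 4 dpi and 74.6 and 67.4 at 2 dpi. Each library gave the higher median in broad domains. By mean signal per base the order held in all libraries but H3K27ac at 2 dpi replicate 2, where the medians were 67.3 in broad domains and 67.9 at ordinary regions.

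Broad domains also had more peaks away from promoters around them. Distal peaks were those of a mark that touched no H3K4me3 peak of any list, counted within 50 kb of the edges. A domain had a mean of 2.29 and 3.08 distal H3K27ac peaks at 4 dpi and 2.92 and 2.31 at 2 dpi, and an ordinary region 1.76 and 1.78 at 4 dpi and 1.63 and 1.21 at 2 dpi. For H3K18la a domain had 1.21 and 1.55 at 4 dpi and 2.53 and 1.38 at 2 dpi, and an ordinary region 0.636 and 0.797 at 4 dpi and 1.43 and 0.691 at 2 dpi. The mean over libraries was 2.65 ± 0.413 at domains and 1.59 ± 0.264 at ordinary regions for H3K27ac, and 1.67 ± 0.591 and 0.889 ± 0.369 for H3K18la (SD, n = 4). Over the 8 libraries the difference was 0.916 peaks, higher in 8 of 8 (exact sign-flip permutation p = 0.00781, adjusted p = 0.0254). The H3K18la library of 2 dpi replicate 1, the longest H3K18la list, had the most distal H3K18la peaks at both kinds of region.

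Broad regions that held an H3K27me3 peak were less covered by the active marks. H3K27ac covered 78.1 ± 13.9% of the length of broad domains without H3K27me3 and 43.5 ± 12.5% of that of the 146 broad regions with it, where the libraries gave 61.3% and 40% at 4 dpi and 40.9% and 31.8% at 2 dpi. H3K18la covered 48.2 ± 7.05% without and 27 ± 5.29% with it (SD, n = 4 libraries). The difference averaged 27.9 percentage points over the 8 libraries and was positive in each (exact sign-flip permutation p = 0.00781, adjusted p = 0.0254). The 2 sets were split by the H3K27me3 peaks that the rule used, and H3K27ac and H3K27me3 are marks of the same lysine. The test is therefore not independent of how the sets were chosen. Neither active mark was found in any library in 4 of the 813 domains (0.492%) and in 27 of the 146 regions with H3K27me3 (18.5%).

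No H3K18la peak was found in any library in 24 domains, and 14 of these held H3K27ac in all 4 libraries. They were low in H3K4me3 height. The median percentile of their H3K4me3 maximum was 33.4 and 34.2 at 4 dpi and 18.1 and 33.5 at 2 dpi, while in the other domains it was 73.0 and 71.2 at 4 dpi and 75.3 and 74.5 at 2 dpi. A group of 6 lay together on chromosome 4 within one stretch, and was singled out after its values had been seen. The stretch held no other domain, and all 4 domains of the series with neither active mark were among them. The domains without either mark ran from 145550101 to 145563616 (13.5 kb), from 146249310 to 146262532 (13.2 kb), from 146545157 to 146559596 (14.4 kb) and from 147260305 to 147269893 (9.59 kb). The other 2, from 146415565 to 146425239 (9.68 kb) and from 147302894 to 147312047 (9.15 kb), held an H3K27ac peak in 1 library each, over 37.2% and 11.2% of the length. The H3K4me3 maximum of the 6 stood at percentiles 0.3 to 20 in the 4 dpi libraries and at 2.4 to 17 in the 2 dpi libraries, so these domains were wide, low and largely bare of acetylation and lactylation. The wide domain on chromosome 3 from 93111838 to 93127076 had the same form, with H3K4me3 maxima at percentiles 0.4 and 4.1 at 4 dpi and 1.8 and 7.7 at 2 dpi, and H3K27ac over 8.1% of its length in 1 library. Of the 6, 5 met the rule without the list of 4 dpi replicate 1. The alignment options that the study lists name no setting for reads that map to several places, and no filter on mapping quality is described. It is not known whether blacklisted places were filtered from these lists. The part of such reads or such places in these low, wide domains was not tested.

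Between 4 and 2 dpi, H3K4me3 was compared by rank. Total signal of each shared region was ranked within a library and turned into a normal score, and limma tested the difference in score, called shift below and positive where a region stood higher at 4 dpi. Of the 813 domains, 136 rose (16.7%) and 110 fell (13.5%) at an adjusted p under 0.05. Over all 13298 shared regions the background was 7.78% rises and 8.07% falls. Total signal was summed over called H3K4me3 peaks, and the merged length of these peaks chose the domains. The share of calls among the domains is therefore not independent of that choice. The median shift was 0.05 in the domains and 0.01 over all regions. The mice of the 2 times differ, and how many went into each library is not given in the sources used here.

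These calls were changes of total signal and depended on what was ranked. The background over all shared regions is given for the main fit only. The counts of domains under the settings that follow therefore cannot be set against the share over all regions. By the maximum, 6 domains rose and 19 fell, and by the mean signal per called base no domain passed in either direction. On log2 values scaled to the library median, 32 rose and 261 fell, with a median shift of -0.19 in the domains and -0.06 over all regions, so the balance of rises and falls turned with the scaling. Leaving out 4 dpi replicate 1 left 56 rises and 82 falls, and leaving out 4 dpi replicate 2 left 52 and 66. Of the 520 domains found again without the list of 4 dpi replicate 1, 81 rose and 83 fell, so 55 of the rises and 27 of the falls were at domains that owed their membership to that list.

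The domains with the smallest p for a rise stood higher at 4 dpi in both libraries. Of the 10 named rises, 3 (the first, the third and that on chromosome 11 from 119280079) met the width rule only with the list of 4 dpi replicate 1, so their higher totals at 4 dpi partly restate how they were chosen. All 10 named falls met it without that list. The first rise, on chromosome 7 from 19426922 to 19434846, stood at percentiles 89.7 and 86.9 of total H3K4me3 at 4 dpi, against 59.4 and 64.2 at 2 dpi (shift 0.89, SE 0.12, limma adjusted p = 0.0012). Its H3K4me3 maximum stood at percentiles 61.6 and 56.9 at 4 dpi, against 30.4 and 39.5 at 2 dpi, and H3K27ac covered 100.0% and 97.5% of it at 4 dpi, against 14.0% and 36.7% at 2 dpi. The H3K27ac region there did not pass its own test (shift 1.08, limma adjusted p = 0.155). The second, on chromosome 18 from 4347509 to 4356364, stood at 99.0 and 98.8 at 4 dpi, against 94.9 and 95.7 at 2 dpi (shift 0.63). The third, on chromosome 2 from 32336319 to 32343772, stood at 92.8 and 94.5 at 4 dpi, against 77.4 and 77.5 at 2 dpi (shift 0.78).

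The next 7 rises had shifts of 0.53 to 0.78. They lay on chromosome 10 from 80764174 to 80772440, chromosome 11 from 68948827 to 68955949, chromosome 11 from 119280079 to 119286847, chromosome 7 from 15776562 to 15787780, chromosome 17 from 24380404 to 24391894, chromosome 11 from 97588445 to 97595821 and chromosome 17 from 34335079 to 34344650. In all 10 rises the percentiles of the 4 dpi libraries lay above those of the 2 dpi libraries. At the rise on chromosome 11 from 97588445, peaks covered 7.38 and 5.78 kb at 4 dpi, against 2.93 and 2.47 kb at 2 dpi, while its maximum stood at 85.6 and 78.3 at 4 dpi, against 83.5 and 84.3 at 2 dpi. The length there is a description, since H3K4me3 length chose the domains and was greater at 4 dpi. H3K18la covered 80.9% or more of the rise on chromosome 10 in every library, 48.6% or more of that on chromosome 17 from 24380404 and 47.4% or more of that on chromosome 18. The rest of the 10 rises had little of it, at 33.5% or less of the length in every library.

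The falls reached larger shifts. Chromosome 2 from 172233462 to 172245336 stood at percentiles 92.2 and 90.6 at 4 dpi, against 99.3 and 99.4 at 2 dpi (shift -1.1, SE 0.09, limma adjusted p = 3.81e-05). Chromosome 7 from 139562714 to 139573493 stood at 90.9 and 89.7 at 4 dpi, against 99.2 and 99.2 at 2 dpi (shift -1.09). Both had been among the strongest H3K4me3 regions at 2 dpi and kept H3K27ac over 97.7% or more of their length at 4 dpi. Chromosome 6 from 123236542 to 123246464 stood at 66.0 and 71.6 at 4 dpi, against 96.2 and 97.2 at 2 dpi (shift -1.35), and its maximum at 16.8 and 21.5 at 4 dpi, against 81.5 and 75.2 at 2 dpi. H3K18la still covered 86.6% and 87.3% of it at 4 dpi, against 96.1% and 95.9% at 2 dpi.

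Chromosome 2 from 160049037 to 160055250 had the most negative shift of the 10 falls, at percentiles 28.7 and 18.4 at 4 dpi, against 76.5 and 88.0 at 2 dpi (shift -1.68, SE 0.18, limma adjusted p = 0.000259). H3K27ac covered 100.0% and 96.9% of it at 4 dpi, against 100.0% and 96.8% at 2 dpi, and H3K18la 76.2% and 100.0% at 4 dpi, against 100.0% and 88.4% at 2 dpi. The length under H3K27ac was nearly equal at both times in this domain, and that under H3K18la overlapped between them. Its H3K4me3 maximum stood at percentiles 6.6 and 21.5 at 4 dpi, against 71.4 and 53.8 at 2 dpi. With the weakest peaks dropped from the lists it could not be fitted. The falls on chromosome 1 from 92899165 to 92909104, chromosome 8 from 55566270 to 55576747, chromosome 8 from 40087749 to 40098340 and chromosome 2 from 177661535 to 177669206 had shifts of -1.34 to -0.84. The remaining 2 of the 10 falls were domains named above as lacking H3K18la, on chromosome 4 from 145550101 and on chromosome 3 from 93111838. The group of 6 on chromosome 4 fell in every member, with shifts of -1.67 to -0.88, and the domain from 145550101 stood at percentiles 26.4 and 25.6 at 4 dpi, against 84.3 and 85.4 at 2 dpi. Of the 24 domains without H3K18la, 7 fell, all of them in this group or the domain on chromosome 3, and 4 rose.

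**Figure D4:**
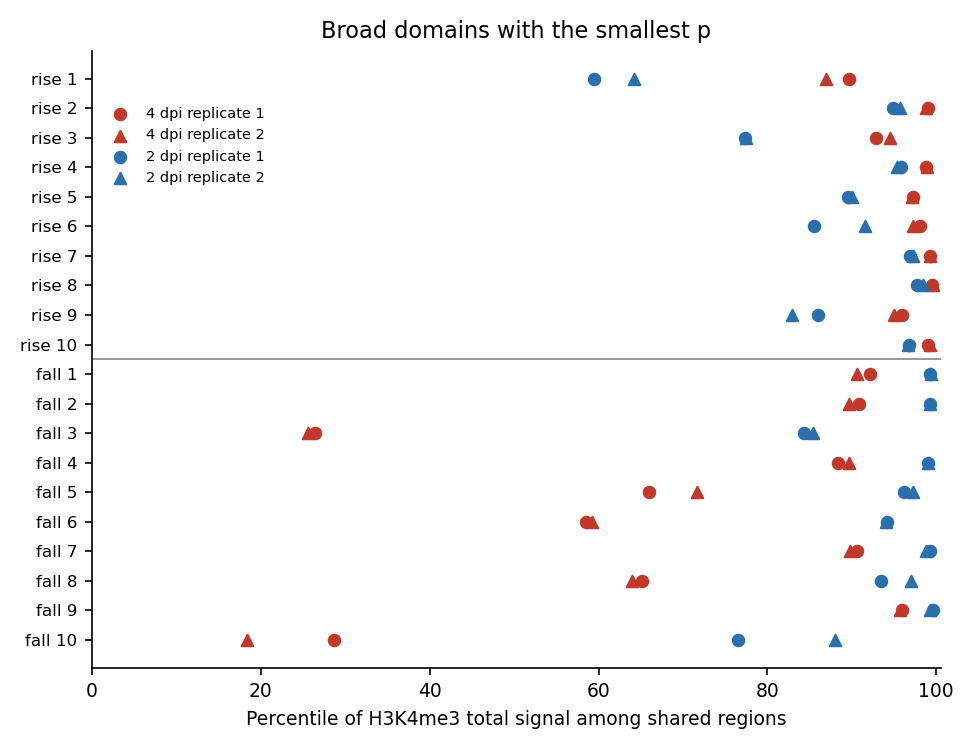
Percentile of total H3K4me3 signal among all shared regions in the 4 libraries, for the 10 rises and 10 falls with the smallest p in order of p (red, 4 dpi; blue, 2 dpi; circle, replicate 1; triangle, replicate 2). At rise 1 the percentiles were 89.7 and 86.9 at 4 dpi, against 59.4 and 64.2 at 2 dpi; at fall 3 they were 26.4 and 25.6 at 4 dpi, against 84.3 and 85.4 at 2 dpi.

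H3K27ac and H3K18la were tested in the same way on their own regions called in all 4 libraries. No H3K27ac region touching a broad domain passed in limma, of 800, where the background over all 13494 H3K27ac regions was 0.178% rises and 0.00741% falls. At an unadjusted p under 0.05 there were 44 positive (5.5%) and 85 negative shifts (10.6%), while over all H3K27ac regions 8.29% were positive and 5.68% negative. No H3K18la region touching a domain passed, of 762, where the background over 9325 regions was 0.0429% rises and 0.0751% falls, and at an unadjusted p under 0.05 there were 72 positive (9.45%) and 62 negative shifts (8.14%), near the 7.15% and 7.61% over all H3K18la regions. Ranking by the maximum or by the mean per base also gave 0 for both marks. Without 4 dpi replicate 2 the median shift of regions touching a domain was -0.12 for H3K27ac and 0.06 for H3K18la. Over all regions of the mark it was -0.07 and 0.03 in the same fits. Log2 values scaled to the library median gave 1 call for H3K27ac and 11 for H3K18la. The share over all regions is not given for that scaling.

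The region with the second smallest p for H3K27ac and the smallest for H3K18la was the same place, a domain on chromosome 9 from 123763282 to 123769546. The H3K27ac shift was -1.24 (SE 0.27, limma adjusted p = 0.0654) and the H3K18la shift -1.21 (SE 0.22, limma adjusted p = 0.0664), and neither passed. H3K4me3 fell there (shift -0.94, limma adjusted p = 0.000297), at percentiles 75.5 and 75.4 at 4 dpi, against 95 and 94.7 at 2 dpi. The smallest p for H3K27ac was at the domain on chromosome 19 from 5888640 to 5901037 (H3K27ac shift -0.48, SE 0.1, limma adjusted p = 0.0654), where H3K4me3 stood at 99.7 to 99.8 in all 4 libraries. The second smallest for H3K18la was a region on chromosome 11 from 70348460 to 70351788 (H3K18la shift 1.98, SE 0.38, limma adjusted p = 0.069), in a domain where H3K4me3 rose (shift 0.59, limma adjusted p = 0.00604).

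The domains where H3K4me3 fell were more covered by H3K18la than those where it rose. The median length under H3K18la in the 110 domains that fell was 55.3% and 68.8% at 4 dpi and 77.4% and 66.5% at 2 dpi. In the 136 that rose it was 33.5% and 40.8% at 4 dpi and 43.4% and 26.2% at 2 dpi, and in the 567 not called 43.6% and 50% at 4 dpi and 60.7% and 39.4% at 2 dpi. The order held in all 4 libraries, at 4 dpi as at 2 dpi. For H3K27ac the medians were 100.0% and 87.4% at 4 dpi and 87.9% and 70.6% at 2 dpi in those that fell, and 100.0% and 77.1% at 4 dpi and 77.8% and 57.4% at 2 dpi in those that rose. By summed length H3K27ac had no such order. It covered 87.5% and 74.5% at 4 dpi and 77.2% and 62.1% at 2 dpi in those that fell, and 96.3% and 74.7% at 4 dpi and 75.1% and 56.8% at 2 dpi in those that rose, and it was present in all 4 libraries in 91.8% of those that fell and 99.3% of those that rose. For H3K18la the summed length kept the order, with 47.6% and 57.9% at 4 dpi and 67.9% and 55% at 2 dpi in those that fell, and 36.7% and 41% at 4 dpi and 44.5% and 29.5% at 2 dpi in those that rose. These sets were formed from H3K4me3 values of the same cells, and the difference is given with no test. Their widths were close, with medians of 7335 bp in those that fell and 7448 bp in those that rose. The sets differed in height, with median percentiles of the H3K4me3 maximum at 2 dpi of 77.5 and 75.9 in those that fell and 69.3 and 68.2 in those that rose, and the part of height in the difference was not tested. They also differed in how they met the width rule. Of the 136 that rose, 55 met it only with the H3K4me3 list of 4 dpi replicate 1, and of the 110 that fell, 27 did. The part of these domains in the difference was not tested.

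**Figure D5:**
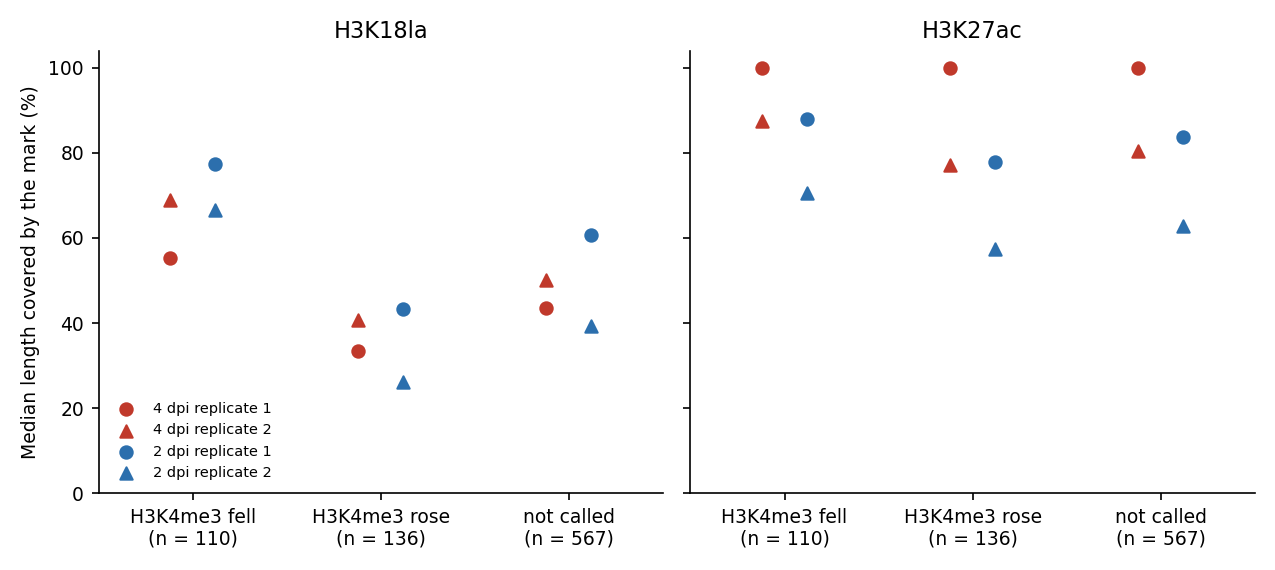
Median share of domain length, in percent, under H3K18la peaks (left) and H3K27ac peaks (right) in each library, for the domains where H3K4me3 fell (n = 110), rose (n = 136) or was not called (n = 567) between 4 and 2 dpi (red, 4 dpi; blue, 2 dpi; circle, replicate 1; triangle, replicate 2). H3K18la medians were 55.3% to 77.4% in the domains that fell and 26.2% to 43.4% in those that rose.

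Shifts of the other marks were then read at these domains, from the region of the mark with the longest overlap. The H3K18la shift was positive in 25 of 91 domains that fell in H3K4me3 (median -0.18) and in 69 of 92 that rose (median 0.25). Over all 621 domains with such a region it was positive in 336 (54.1%). The H3K27ac shift was positive in 24.8% of the domains that fell and had such a region (median -0.12) and in 37% of those that rose (median -0.13), with 288 of 801 (36%) positive over all and a median of -0.07 over all H3K27ac regions. The H3K18la shift thus had the sign of the H3K4me3 call in most called domains, while the H3K27ac shift was mostly negative in both sets. The median H3K27ac shift was -0.1 over regions touching a domain, and -0.05 without H3K27ac at 4 dpi replicate 1. Over all H3K27ac regions it was -0.02 without that library. The signs in the sets that rose and fell are given only with it. Across domains, Pearson's r between the H3K4me3 and H3K18la shifts was 0.27 and Spearman's rho 0.31 (n = 621 domains), and between the H3K4me3 and H3K27ac shifts 0.08 and 0.05 (n = 801). Between the H3K27ac and H3K18la shifts r was 0.17 and rho 0.21 (n = 621). These are descriptions across genomic regions that share their libraries and are not independent replicates. They include the domains that met the width rule only with the H3K4me3 list of 4 dpi replicate 1. Each region's total moves with the length called in it.

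Called H3K4me3 length did not pass the limma test in any domain, and the background was 0% in both directions over all shared regions. At an unadjusted p under 0.05 there were 76 longer (9.35%) and 12 shorter domains (1.48%) at 4 dpi, and over all regions 8.5% were longer and 0.384% shorter, so the lean to longer was that of all regions. The median difference in log2 length was 0.1 in the domains and 0.18 over all regions, and it was -0.02 and 0.02 without 4 dpi replicate 1, the library with the longest peaks. Without 2 dpi replicate 2 it was 0.15 in the domains and 0.23 over all regions, and without 2 dpi replicate 1 it was 0.04 and 0.12.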

How the data were processed

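CUT&Tag peak lists of 16 libraries from sorted muscle macrophages were used. The submitters' processing notes name Trim Galore 0.6.6 for trimming, Bowtie2 2.4.4 for alignment, SAMtools 1.13 and bedtools 2.30. The authors called peaks in each library with SEACR 1.3 (stringent mode, threshold 0.01), which keeps the top share of enriched blocks, so that list length moves with depth and background. The deposited signal is the sum and the maximum of coverage per peak, in whole numbers, not normalised between libraries, and was therefore used by rank within a library. Labels name GRCm39 and the methods of the study mm10. Peak ends and a contig name fit GRCm39, which was used. The annotation at hand was GRCm38, so the planned gene lists, cell type markers and sequence features were not run.

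Peaks on chromosomes 1 to 19, X and Y entered, and no blacklist filter was applied here. The study's methods describe such a filter, but its use on the lists at hand could not be checked. Domains and lists were chosen with earlier results of these data known. Shifts of ranks (as normal scores) and of log2 called length were tested with limma 3.58.1 (R 4.3.3, trended and robust variance, Benjamini-Hochberg over all regions of a mark, threshold 0.05), as checked on simulated data. Exact sign-flip and permutation tests were run in Python 3.11.15. Named regions were the 10 widest, the 10 rises and 10 falls of H3K4me3 with the smallest p, for H3K27ac and H3K18la the 2 smallest p where none passed, and the neighbours of the 6 kb limit. Replicates are separate libraries in the labels, and limma p-values measure the spread between them. The sign-flip tests use the difference between sets of regions within each library, and the permutation tests between marks pool both times. Replicate numbers do not pair libraries across times, since the mice differ. Names of the deposited H3K27me3 lists swap both replicate numbers at 4 dpi relative to the labels, which were followed. Alternatives covered width limits, stricter lists, other signal measures, windows and leaving out libraries. The comparisons of summit distance and of broad regions with H3K27me3, and the check on domains found in 3 libraries, were added after seeing the data. The comparison with H3K27me3 regions was counted in the family of 13 tests.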

Additional observations from a re-analysis of the deposited data

Results flagged for a closer look

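Of 22 sets of 4 library values on the broad domains, 2 had a library far from the other 3, where chance flags about 1 set in 20. Both were the H3K18la library of 2 dpi replicate 1, the longest H3K18la list. It held 1.72 H3K18la peaks per broad domain, against 1.4 to 1.41 in the other 3 libraries, and 10.5% of its total signal lay in broad domains, against 11.5% to 11.6% in the other 3.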

How the results depend on the processing

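Counts of calls in this section are of domains or of regions touching them, without the share over all regions under the same setting. Where 1 library of a mark was left out, 1 time kept a single library. The number of domains moved with the rule. It was 1489 at 5 kb, 264 at 8 kb, 232 with 6 kb called in every library, 145 with a single peak of 6 kb in every library, and 525 to 793 with 1 H3K4me3 library left out. For H3K4me3 between 4 and 2 dpi, 246 calls became 25 by maximum signal and 0 by mean signal per called base, and 118 to 253 with 1 library left out. H3K27ac had 1 call on log2 values, 1 with stricter lists and 1 to 22 with 1 library left out. H3K18la had 11 on log2 values, 2 in regions called in 3 or more libraries and 0 to 31 with 1 library left out. Called length had 0 to 23 with 1 library left out. Same-numbered libraries did not deviate together (correlations of -0.00265 for H3K4me3, 0.0862 for H3K27ac, -0.0648 for H3K18la and -0.0246 for length), and a replicate block gave 264 calls for H3K4me3, 31 for H3K27ac, 20 for H3K18la and 17 for length. Of the 20 named H3K4me3 calls, 3 values changed sign, at chromosome 11 from 97588445 to 97595821 (-0.07 by maximum, -0.73 by mean signal) and chromosome 17 from 34335079 to 34344650 (-0.05 by maximum). By maximum signal 1 of the 10 rises and 7 of the 10 falls kept their call, and by mean signal none of the 20 did. On log2 values the rises on chromosome 7 from 15776562 (adjusted p = 0.0646 in limma), chromosome 17 from 24380404 (0.0989) and chromosome 17 from 34335079 (0.0685) were lost. With stricter lists, 17 of the 20 could be fitted. Differences between broad and ordinary regions kept their direction under every alternative run. With 1 library left out, the adjusted p over both marks was 0.0508, with differences of 20.4 to 26.3 points for peaks present, 14.3 to 16.5 points for length covered, 0.861 to 0.972 distal peaks, and 26.5 to 29.6 points against broad regions with H3K27me3. Read depth is unknown, so peaks missed for depth cannot be told from absent ones.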
